A study of Gallus gallus with 6 samples.

Results

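The auditory epithelium of the chick, the basilar papilla (BP), was compared between chicks 72 hrs after gentamicin and untreated chicks, over the genes that the array measured well above its lower range. The genes were chosen by brightness: a chicken probe set, which is a group of short probes for 1 transcript, was kept when its mean log2 intensity over all 6 arrays of the series was over 7, an intensity of 128 on the linear scale. Of 37693 chicken probe sets 9319 passed (24.7%). Of these, 352 on the Z and 7 on the W chromosome were set aside, and the other 8960 gave 5460 genes with 1 symbol, each represented by its brightest probe set. The mean takes in the arrays compared. Of the 5460 genes, 50 passed only through the 72 hr arrays, with a mean of the other arrays at or under 7, and 48 passed only through the controls. Such genes had to be higher in that group than in the mean of the other arrays: 23 of the 50 had both 72 hr values above both controls, and 18 of the 48 had both below. For the 50, the other arrays include 2 taken 48 hrs after gentamicin. By the controls alone, 95 genes had a control mean at or under 7 and so passed only through gentamicin arrays of either time. CALB2 and TUBB6, named below, are among them, with control means of 6.30 and 5.50. Just inside the limit were SRC, LSS and FYTTD1L, with differences between 72 hrs and control of 0.17, -0.13 and -0.34. Just outside were KDF1, BBOX1 and SLX4IP, with differences of 0.19, -0.23 and -0.05.

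The chicks were wild type and 12 to 16 days old. The 72 hr group had received gentamicin, an antibiotic of the aminoglycoside class that is toxic to hair cells (HCs), and the controls were age-matched and untreated. The basal part of the BP, where most HC loss occurs, was dissected, and RNA from several papillae was pooled and hybridized as biotin-labelled cRNA to the Affymetrix GeneChip Chicken Genome Array. Each group held 2 arrays, numbered 1 and 2 in their titles as biological replicates. In the source names both control arrays carry the number 2, but the titles were followed, so pair 1 is the 72 hr array minus the control array of replicate 1, and pair 2 the same for replicate 2. Another group, 2 arrays taken 48 hrs after gentamicin, entered the mean brightness and the estimate of the spread. A few of its values are given beside those compared.

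In birds, unlike mammals, lost HCs are replaced. The supporting cells (SCs) that surround them leave quiescence, copy their DNA and divide, and some of their daughters become new HCs, while other SCs turn into HCs without dividing. Division draws on a set of genes that follow each other through the cycle, from the licensing of replication origins and the supply of nucleotides to the packing of new chromatin, the kinetochore that ties chromosomes to the spindle, and the spindle itself. Because the tissue was measured whole, fewer cells of a type and less RNA per cell cannot be told apart.

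The label of the tissue was borne out for part of its defining genes. Of 12 genes that mark the BP, 7 were over 7, among them TECTB, a protein of the tectorial membrane, at 13.30 and 13.11 in the 72 hr arrays and 13.32 and 13.33 in controls. CALB2 was over 7 on its mean, but at 6.76 and 5.85 in controls. TECTA, OC90, MYO7A and PAX2 were among those under 7. The summed intensity of the 12 genes, which is weighted to bright ones such as TECTB, was 22246 and 21120 at 72 hrs and 22672 and 20627 in controls. Of the 12, 1 lay above both controls at 72 hrs and 3 below. The arrays of a group were not alike. The 3′ probe set of GAPDH exceeded the 5′ one by 2.05 and 4.58 at 72 hrs, against 2.46 and 3.31 in controls. This gap was wider on replicate 2 of each group, and at 4.97 on 48 hr replicate 2 it exceeded that of 72 hr replicate 2. For EF1A the gap was 1.59 and 3.94 at 72 hrs and 1.74 and 1.85 in controls. The 13 connective tissue markers summed to 928 and 809 at 72 hrs and to 3386 and 702 in controls. Among the 72 hr and control arrays, 72 hr replicate 2 thus had the widest gaps and control replicate 1 the highest marker sum. The cause of the wider gaps on replicate 2 was not tested. Sex is not among the labels. Probe sets on Z had median differences of 0.38 in pair 1 and 0.23 in pair 2, against -0.02 and -0.01 for those on neither Z nor W. The 7 probe sets on W had medians of -0.22 in pair 1 and 0.49 in pair 2. Of the 16 probe sets called lower on the whole array 10 lay on Z or W. The part of sex in these values was not tested.

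Few of the 5460 genes differed the same way in both pairs. In pair 1, 167 genes were higher by over 0.6 on the log2 scale and 201 lower by as much, and in pair 2 these counts were 493 and 456. The limit of 0.6 is the fold rule of the study's methods and carries no test. The methods apply it to the change against controls and do not ask for it in each pair. On the mean of both pairs, 158 genes were over 0.6 and 105 under -0.6. In both pairs at once 33 genes were higher (0.604%) and 37 lower (0.678%), while 64 genes (1.17%) passed the limit in opposite directions and 4277 (78.3%) stayed within it in both pairs. The sign agreed in 2724 genes (49.9%), and across genes, which are not independent replicates, the differences of the pairs had r = 0.05. The spread between replicates was as wide as the difference between groups: the median absolute difference was 0.17 in pair 1 and 0.26 in pair 2, 0.31 between the 72 hr arrays and 0.22 between the control arrays. Of the 33 and 37 genes, 28 and 31 also had both 72 hr values beyond both controls, and 5 of the 33 had passed the limit of 7 only through the 72 hr arrays and 5 of the 37 only through the controls. With the arrays paired the other way round, 38 genes were higher and 23 lower.

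**Figure D1:**
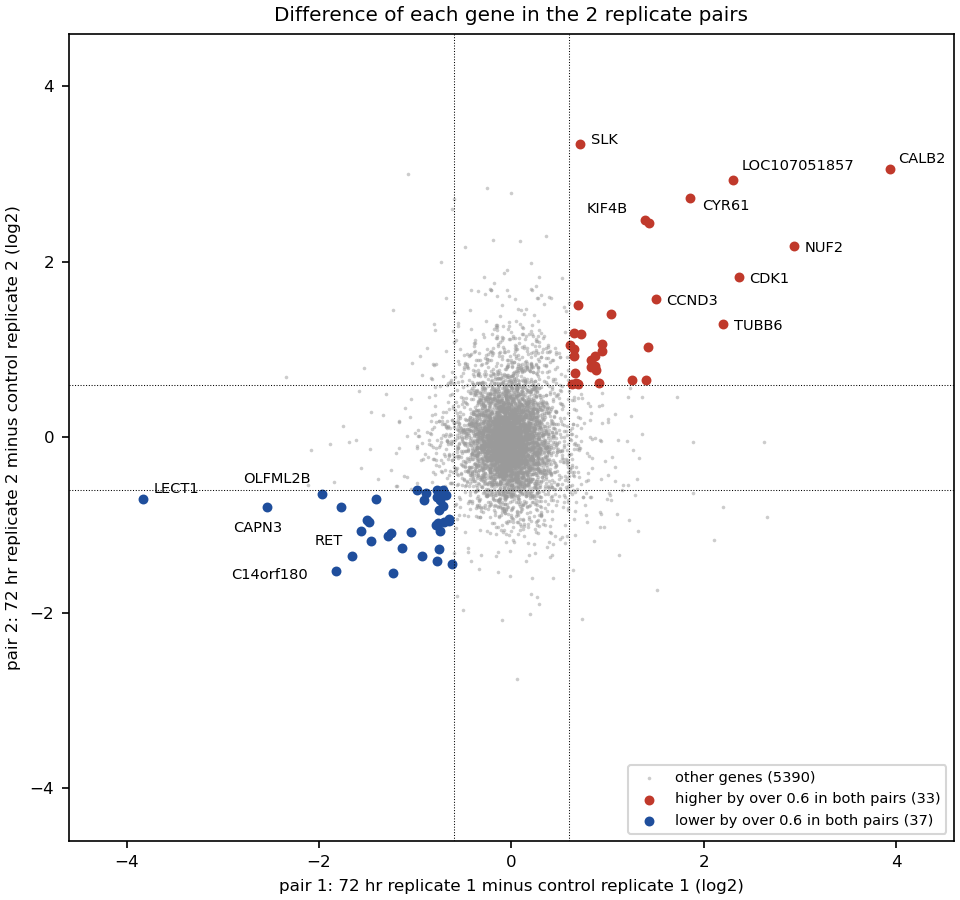
Log2 difference between 72 hrs and control for each of the 5460 genes over 7, with pair 1 on the x axis and pair 2 on the y axis. Dotted lines mark 0.6 and -0.6, and 33 genes (red) and 37 genes (blue) lie beyond them in both pairs. The other 5390 genes are in grey.

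With limma fitted to all 6 arrays, 2 probe sets of the 8960 rose at 72 hrs and 0 fell at an adjusted p under 0.05, against 18 higher (0.0469%) and 16 lower (0.0417%) of the 38382 probe sets tested on the whole array. Without adjustment, 74 of the 5460 genes were higher (1.36%) and 86 lower (1.58%) at a p under 0.05. One of the 2 was CYR61, a secreted matrix-associated protein and a known target of the growth regulator YAP. Its log2 intensity was 8.29 and 8.71 at 72 hrs and 6.43 and 5.98 in controls, so the log2 fold change was 2.29 with a standard error of 0.28 (adjusted p = 0.0465, limma). The other was LOC107051857, a protein-coding gene with no name, at 10.61 and 10.95 at 72 hrs and 8.30 and 8.02 in controls with a log2 fold change of 2.62 and a standard error of 0.27 (adjusted p = 0.0262, limma). In neither gene did the 72 hr and control values overlap. CYR61 passed the limit of 7 only through the 72 hr arrays, with a mean of 6.91 over the other 4, so without such probe sets 1 call was left. Leaving out any 1 of the 6 arrays ended both calls, with adjusted p from 0.096 to 0.635 for LOC107051857 and from 0.156 to 0.663 for CYR61 (limma). As RNA was pooled, these p values rest on the spread between pools, which may be technical, and not on that between chicks.

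The genes with the largest difference in the weaker of their pairs are named next, and apart from CYR61 and LOC107051857 none of them passed limma's adjusted threshold. They were ranked by that difference among genes whose groups do not overlap, so that their values are a description. CALB2, the calcium-binding protein calretinin of HCs, led them with 10.69 and 8.91 at 72 hrs and 6.76 and 5.85 in controls, higher by 3.94 in pair 1 and 3.06 in pair 2 (adjusted p = 0.176, limma). Its second probe set over 7 was higher by 3.71 on average. Its 72 hr arrays lay far from each other, at 9.80 ± 1.26 against 6.30 ± 0.64 in controls (SD, n = 2 arrays each), and the standard error of the difference was 0.55.

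Genes of cell division followed. NUF2, a subunit of the NDC80 complex that holds microtubules at the kinetochore, was at 9.42 and 8.74 at 72 hrs and at 6.48 and 6.56 in controls (log2 fold change 2.56, adjusted p = 0.0824, limma). Like CYR61 it passed the limit of 7 only through the 72 hr arrays. CDK1, the kinase that starts mitosis, was at 9.72 and 8.69 against 7.35 and 6.86 in controls. CCND3, the cyclin D3 that drives cells out of the first gap phase, was at 10.92 and 11.32 against 9.41 and 9.75 in controls, higher by 1.51 in pair 1 and 1.58 in pair 2. KIF4B, the chromokinesin that RefSeq also lists as KIF4A, was higher by 1.39 and 2.48, and a second probe set of it over 7 by 1.81 on average. RFC2, a subunit of the clamp loader at the replication fork, was higher by 1.03 and 1.40, and PTTG2, listed also as the securin PTTG1, by 1.42 and 1.02. LMNB2, a lamin of the nuclear envelope, was higher by 0.88 and 0.93, and USP1, which removes ubiquitin from the sliding clamp, by 0.83 and 0.88.

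The rest of the 15 highest genes had other roles or none that is known. VPS26B, a part of the retromer that sorts endosomal cargo, was at 7.39 and 9.14 at 72 hrs and at 5.96 and 6.70 in controls, and it too passed the limit only through the 72 hr arrays. TUBB6, a beta tubulin, was at 8.23 and 6.26 against 6.03 and 4.97, and TRIM59 was higher by 0.95 and 1.07. LOC770705, which has no name, was higher by 0.87 and 0.81. Among the genes further down, DCK, which salvages deoxynucleosides, was higher by 1.40 and 0.65, and UNG, which removes uracil from DNA, by 0.91 and 0.62. PENK, the precursor of the enkephalins, was higher by 1.26 and 0.65. Of the 33 genes higher in both pairs, 5 overlapped with controls, among them KCNMA1, the BK potassium channel of HCs, at 7.89 and 10.30 against 7.24 and 9.11 in controls.

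The 15 lowest genes at 72 hrs had varied roles, and C14orf180, CAPN3 and COL4A1 among them passed the limit of 7 only through the controls. C14orf180, without a known role, was at 7.06 and 7.13 at 72 hrs and at 8.89 and 8.65 in controls (log2 fold change -1.67, adjusted p = 0.178, limma). SDR42E2, named as a short-chain dehydrogenase, was at 9.46 and 9.68 against 10.96 and 10.62 in controls (adjusted p = 0.206, limma). In both genes the arrays of a group lay close together. RET, the receptor tyrosine kinase for the GDNF family, was at 7.74 and 6.98 against 9.40 and 8.33. CCK, the peptide cholecystokinin, was at 8.82 and 8.05 against 10.29 and 9.23, and FABP3, a fatty acid-binding protein, at 7.97 and 7.60 against 9.53 and 8.66. In RET, CCK and FABP3 replicate 2 was the dimmer array of both groups. The differences of the pairs were -1.25 and -1.09 in GPR160, an orphan receptor, -1.23 and -1.54 in GSTA4, a glutathione transferase, -1.13 and -1.26 in PLBD1, and -1.04 and -1.08 in CTBS, a lysosomal chitobiase. CAPN3, a calpain protease, had -2.54 in pair 1 and -0.79 in pair 2, the most uneven of the 15. COL4A1, a chain of basement membrane collagen, had -0.787 and -1.002, NTPCR -0.77 and -1.41, DUSP19, a dual specificity phosphatase, -0.76 and -0.98, and the unnamed LOC422895 and LOC770248 -1.48 and -0.97, and -0.93 and -1.36.

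**Figure D2:**
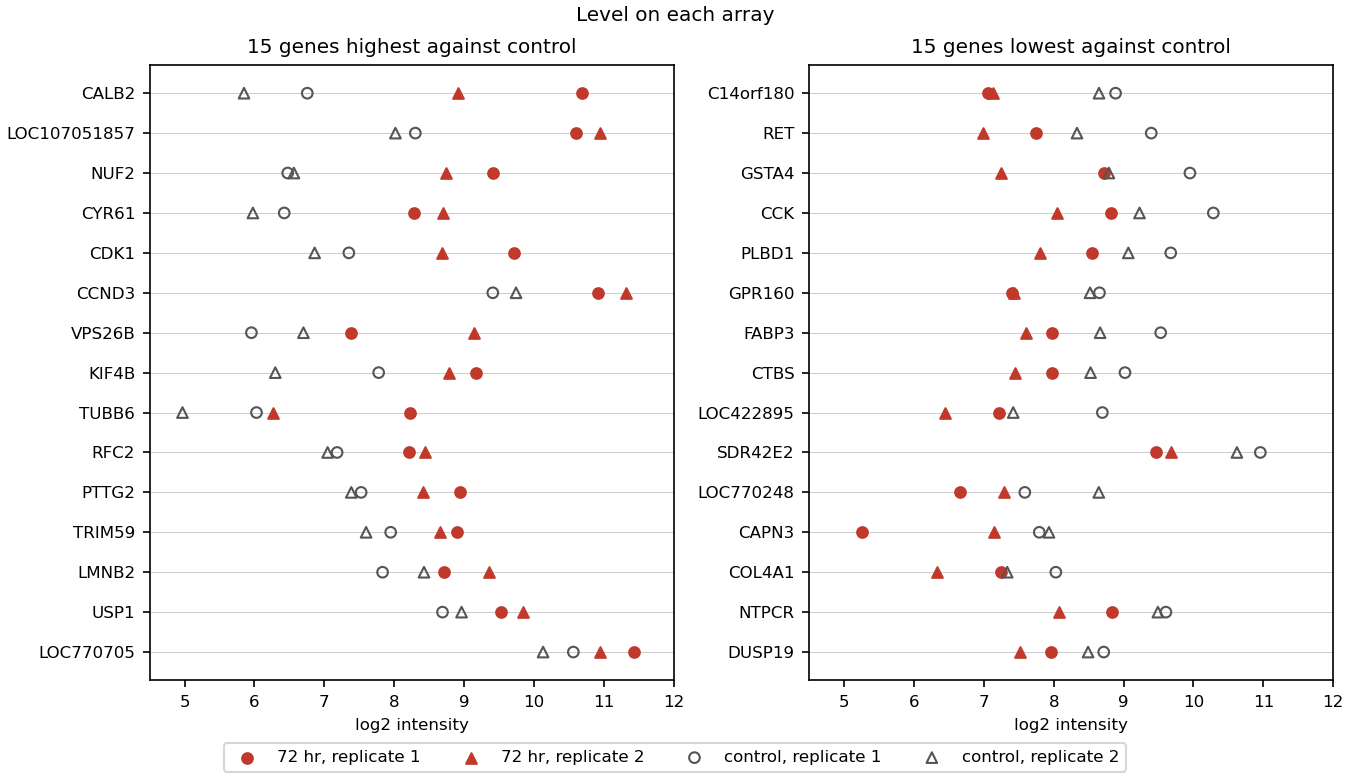
Log2 intensity on each of the 4 arrays (x axis) for the 15 genes highest and the 15 lowest at 72 hrs, ranked by the smaller difference of the pairs. Filled red symbols are 72 hr arrays and open grey symbols controls, with circles for replicate 1 and triangles for replicate 2, and in each gene the filled and open symbols do not overlap.

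Gene families were compared over 39 lists by the number of genes whose 72 hr values both lay above, or both below, the controls. Over the 5460 genes this was so for 601 genes above (11.0%) and 806 below (14.8%), and the median difference was -0.03 in each pair. With the medians of the arrays made equal, 475 genes lay above and 1044 below, and 27 and 49 passed the fold rule in both pairs. The lists share genes, were not tested as sets, and besides CYR61 hold no gene over 7 that passed limma.

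Among genes over 7, most lists for chromosome copying and division had more genes above than below, but not those of condensin and cohesin and of cell cycle transcription factors. With dim genes included, 6 of 18 condensin and cohesin genes lay above and 4 below, and 6 of 25 cell cycle transcription factors above and 1 below. Over all 12386 genes of the array not on Z or W, 14.8% lay above and 13.2% below. In the list for chromatin copying, the histone chaperones, silencing factors and nuclear envelope proteins that rebuild chromatin behind the fork, 12 of 25 genes lay above both controls (48.0%) and 1 below, with medians of 0.24 in pair 1 and 0.14 in pair 2. LBR, the lamin B receptor, was at 9.36 and 9.54 at 72 hrs and at 8.83 and 8.95 in controls, and HMGB1, a DNA-bending protein, at 9.30 and 10.54 against 9.04 and 8.81. NASP, a histone chaperone, was higher by 0.70 and 0.23, SUZ12, a subunit of the Polycomb complex PRC2, by 0.52 and 0.19 and CBX1, a reader of silent chromatin, by 0.26 and 0.23. The gene below was ANP32E (-0.07 and -0.40). With equal array medians 9 genes lay above and 1 below, and the median of pair 2 was 0.039.

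DNA replication had 7 of 24 genes above (29.2%) and 1 below, but its median was 0.17 in pair 1 and -0.03 in pair 2. With equal array medians 5 lay above and 1 below, and the median of pair 2 was -0.13. After quantile normalization 5 lay above and 2 below, and that median was -0.09. By role, the clamp, its loader and the fork held 5 of the 7, and 0 of 4 polymerase and primase genes and 0 of 2 origin firing genes lay above. CDT1, which loads the MCM helicase at origins, was at 7.57 and 7.33 at 72 hrs and at 6.77 and 6.94 in controls, over the limit only through the 72 hr arrays, and ORC2, of the origin recognition complex, was higher by 0.45 and 0.30. FEN1, the nuclease that trims Okazaki fragments, was at 9.48 and 9.46 against 8.84 and 9.14, and RPA3, of the single-strand binding complex, was higher by 0.41 and 0.20. RFC4, a partner of RFC2 in the clamp loader, had differences of -0.06 and -0.07. In nucleotide supply 3 of 20 genes lay above, DCK, CTPS1 (0.35 and 0.23) and ATIC (0.13 and 0.34), and ADSS2 (-0.06 and -0.36) below.

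Of 11 cyclin and CDK genes 4 lay above and 0 below, or 3 above and 2 below with equal array medians. Besides CDK1 and CCND3 these were CCND1 (0.25 and 0.58) and WEE1, the kinase that holds CDK1 inactive (0.10 and 0.69). The list of 9 kinetochore and checkpoint genes had 4 above, of which NUF2 passed the limit of 7 only through the 72 hr arrays. The list had medians of 0.42 and 0.16, the second of which was 0.055 with equal array medians. In it MAD2L1, which delays anaphase until chromosomes are attached, was at 9.31 and 8.76 at 72 hrs and at 8.30 and 8.55 in controls, and ZW10 was higher by 0.43 and 0.43 and BUB3 by 0.42 and 0.15. Of 6 spindle genes 3 lay above, KIF4B, STMN1 and TACC3. STMN1, the microtubule-destabilizing stathmin, was at 11.31 and 10.65 against 9.95 and 10.19 in controls, and TACC3, a spindle protein that works with CKAP5, at 9.38 and 9.37 against 8.73 and 8.94. CKAP5 itself was at 8.996 and 8.550 against 8.997 and 9.212.

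Most division genes of the array lay under the limit of 7. Of 44 spindle and cytokinesis genes on the array 42 were not on Z or W, and over these, dim genes included, 25 lay above both controls and the median log2 fold change was 1.42. For the kinetochore list the median over all its genes was 0.57, and for cyclins and CDKs 0.39. Over all 12386 genes of the array not on Z or W, 14.8% lay above both controls and 13.2% below, and 3.19% were higher and 2.09% lower in both pairs by the fold rule. E2F1, a transcription factor of S phase entry, had a mean just under the limit at 6.98 and was at 8.003 and 7.908 at 72 hrs and at 6.114 and 6.245 in controls (adjusted p = 0.0834, limma). The list of cell cycle transcription factors over 7 had 0 of 13 genes above and 1 below, LIN52 of the MuvB complex (-0.38 and -0.15).

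Cohesin genes lay on both sides of the controls. Among 10 condensin and cohesin genes PTTG2 and RAD21 (0.18 and 0.13) lay above, and WAPL, which releases cohesin from chromosomes, STAG1 (-0.17 and -0.43) and MAU2 (-0.01 and -0.47) below. WAPL was at 10.98 and 10.99 at 72 hrs and at 11.54 and 11.52 in controls, with 2 more probe sets over 7. Of 9 genes of the anaphase promoting complex, ANAPC1 (0.03 and 0.13) and CDC16 (0.22 and 1.15) lay above and ANAPC4 (-0.41 and -0.41) below, and with equal array medians 0 lay above. In DNA repair 6 of 18 genes lay above and 2 below, with medians of 0.14 and 0.02. With equal array medians 4 lay above and 3 below, and the median of pair 2 was -0.08. BRCA1, of homologous recombination, was at 8.34 and 7.30 against 6.62 and 6.84 in controls, and MSH6, XRCC6 and LIG3 were higher by at most 0.33 in either pair.

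Nuclear transport, the importins, exportins and pore proteins, had 11 of 37 genes above (29.7%) and 2 below, with a median of 0.16 in both pairs, but 0.17 and 0.055 with equal array medians and 0.18 and 0.10 after quantile normalization. IPO7, an importin, was at 9.95 and 9.91 at 72 hrs and at 9.35 and 9.38 in controls, although its second probe set over 7 was lower, at -0.08 on average. IPO11 was at 8.92 and 9.17 against 8.46 and 8.22, and NUP153, of the nuclear basket of the pore, at 7.56 and 7.93 against 7.10 and 7.16. IPO8 (-0.06 and -0.14) and KPNA6 (-0.15 and -0.05) lay below. In ribosome biogenesis 7 of 25 genes lay above, WDR43 by 0.28 and 1.32, PES1 by 0.55 and 0.07 and DKC1, of the box H/ACA particles, by 0.38 and 0.29. Its median was 0.18 in pair 1 and 0.03 in pair 2, or -0.07 in pair 2 with equal array medians. The ribosomal proteins themselves had 1 of 57 above and 3 below, and their median was 0.03 in pair 1 and -0.19 in pair 2. Splicing factors had 9 of 38 above and 6 below, but 3 above and 7 below with equal array medians.

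**Figure D3:**
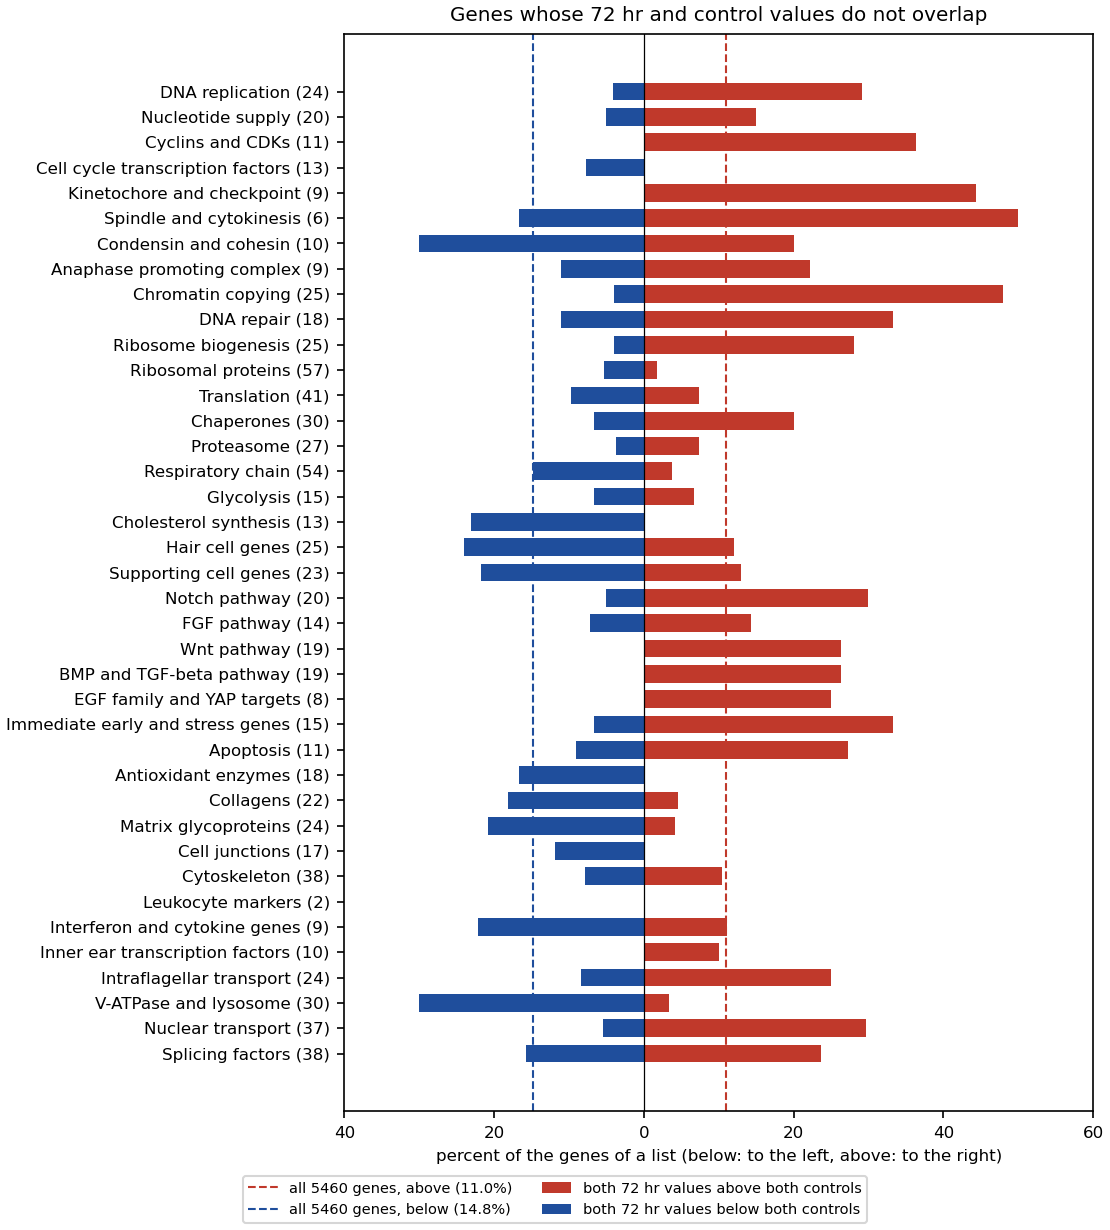
Percent of the genes of each list with both 72 hr values above both controls (red, to the right) or below them (blue, to the left), with the number of genes over 7 in brackets. Dashed lines give 11.0% and 14.8% for all 5460 genes. Among the lists beyond the first line are spindle and cytokinesis (50.0%), chromatin copying (48.0%), kinetochore and checkpoint (44.4%) and nuclear transport (29.7%). Among those beyond the second are V-ATPase and lysosome (30.0%) and condensin and cohesin (30.0%). NUF2, counted above in the kinetochore list, passed the limit of 7 only through the 72 hr arrays.

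The lists of the Notch, FGF, Wnt, BMP and TGF-beta pathways and of EGF and YAP genes also had more genes above than below. For FGF the share above was 14.3%, near the 11.0% over all 5460 genes. With dim genes included, FGF had 3 of 38 genes above and 3 below. Wnt then had 7 of 49 above (14.3%) and 3 below, beside 14.8% above over all 12386 genes. Notch had 11 of 32 above and 2 below, BMP and TGF-beta 12 of 40 and 2, and EGF and YAP 8 of 26 and 2. In the Notch pathway, by which HCs keep their neighbours from becoming HCs, 6 of 20 genes lay above and 1 below, with medians of -0.06 and 0.16, though 5 lay on either side with equal array medians. LFNG, a glycosyltransferase that modifies Notch, was at 12.04 and 12.31 at 72 hrs and at 11.70 and 11.67 in controls, and DLL1, a ligand, was higher by 0.48 and 0.15. NUMB, an inhibitor of Notch, was higher by 0.18 and 0.44 and RBPJ, the transcription factor of the pathway, by 0.17 and 0.30. HES5, a target of Notch in SCs, lay below, at 9.15 and 8.37 against 9.57 and 9.78 in controls. Of 19 Wnt genes 5 lay above and 0 below, or 4 and 1 with equal array medians, and 3 of the 5 were the receptors FZD8 (0.63 and 0.61), FZD3 (0.34 and 0.36) and FZD4 (0.31 and 0.39). Of 19 BMP and TGF-beta genes 5 lay above and 0 below. BAMBI, a decoy receptor that blocks the pathway, was at 9.62 and 9.46 at 72 hrs and at 8.90 and 8.89 in controls, and TGIF1, a repressor of SMAD targets, was higher by 0.66 and 0.73. In the FGF list of 14, SPRY2 (0.26 and 0.54) and SPRED1 (0.12 and 0.17), both feedback inhibitors, lay above and FGF1 (-0.41 and -0.04) below. The list of EGF and YAP genes held CYR61, over 7 only through the 72 hr arrays, and TEAD4 (0.27 and 0.03) above, of 8. With equal array medians only 1 gene of it lay above.

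Genes that respond early to stress and growth factors had 5 of 15 above, KLF6 (0.50 and 0.45), ATF4 (0.33 and 0.36), MAFK (0.31 and 0.57), BTG1 (0.21 and 0.32) and ZFP36L1 (0.13 and 0.42), and 1 below, MDM2 (-0.33 and -0.10). After quantile normalization 3 lay on either side. EGR1 was at 11.16 and 9.70 at 72 hrs and at 9.96 and 9.75 in controls, and the small heat shock protein HSPB9, HSP25 in older use, at 9.93 and 7.91 against 7.31 and 7.96. Among the 72 hr and control arrays, both were high on 72 hr replicate 1 alone. On the 48 hr arrays EGR1 was at 11.18 and 11.06 and HSPB9 at 11.25 and 10.645. MYC was at 7.99 and 7.25 against 7.18 and 7.74, higher in pair 1 by 0.80 and lower in pair 2 by 0.48. HBEGF, an EGF receptor ligand whose mean of 6.002 was under the limit, was at 6.87 and 4.86 against 4.81 and 4.84. Among these arrays it was also high on 72 hr replicate 1 alone, and on the 48 hr arrays it was at 7.65 and 6.98. FGFR2 differed by -0.10 and 0.42, MAPK8 (mean 6.82) by 0.75 and -0.95 and GAPDH by 0.18 and -0.41. KLF2, with a mean of 4.55, was at 5.21 and 2.25 against 6.68 and 3.45. HES6, a transcription factor with a mean of 6.94, was at 9.19 and 8.10 against 4.01 and 4.36 in controls and passed limma on the whole array (adjusted p = 0.0135). Leaving out any 1 array ended this call (adjusted p from 0.074 to 0.519, limma), as did fitting the control and 72 hr arrays alone (0.115), a floor of 32 (0.661) and no trend in the prior variance (0.202).

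Genes of HCs and SCs lay on both sides of the controls, with more below than above, as over all 5460 genes (14.8% below and 11.0% above). Over all 47 HC genes on the array not on Z or W, dim ones included, the order was turned, with 11 above (23.4%) and 7 below. It was turned in the same way over all 12386 genes of the array not on Z or W, with 14.8% above and 13.2% below. Of 25 HC genes over 7, 6 lay below (24.0%) and 3 above, CALB2, CHRNA10 (0.69 and 0.14) and CIB2 (0.11 and 0.91). LHFPL5, a subunit of the transduction channel complex, was at 8.44 and 8.24 at 72 hrs and at 8.98 and 8.95 in controls, and a second probe set was lower, at -0.73 on average. USH1C, the bundle scaffold harmonin, was at 10.63 and 11.38 against 11.50 and 11.61, but its second probe set over 7 was at only -0.05 on average. CACNA1D, the calcium channel of the HC synapse, had differences of -0.23 and -0.64. SNAP25, of vesicle release and also a neuron marker, had differences of -0.23 and -0.78. The 9 neuron markers summed to 4420 and 3524 at 72 hrs and to 1875 and 4297 in controls, and their part in these results was not tested. SMPX, a small cytoskeletal protein linked to hearing loss in humans, was at 10.90 and 10.77 against 11.64 and 11.83 in controls. Of 23 SC genes 5 lay below (21.7%), HES5, TECTB (-0.02 and -0.22), OTOGL (-0.20 and -0.04), EPCAM (-0.04 and -0.15) and the connexin GJB6 (-0.09 and -0.09), and 3 above, LFNG, ZBTB20 (0.01 and 0.80) and JAG1 (0.01 and 0.30). OTOGL had 2 more probe sets over 7, at -0.025 and 0.121 on average.

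The V-ATPase, the pump that acidifies lysosomes and other vesicles, and lysosomal proteins had 9 of 30 genes below (30.0%) and 1 above, with medians of -0.07 in pair 1 and -0.15 in pair 2. With equal array medians 12 lay below. ATP6V1C2, an isoform of the C subunit, was at 11.29 and 10.92 at 72 hrs and at 11.94 and 11.88 in controls (adjusted p = 0.712, limma). CTSD, the protease cathepsin D, was at 10.72 and 10.84 against 11.01 and 11.17, and ATP6V0B, of the membrane sector, had differences of -0.27 and -0.44. ATP6V1D (0.12 and 0.44) was the one above. The respiratory chain had 8 of 54 genes below (14.8%) and 2 above, the share below being that of all genes. Its median was -0.03 in pair 1 and -0.22 in pair 2. Cholesterol synthesis had 3 of 13 below (23.1%) and 0 above, HSD17B7 (-0.79 and -0.42), NSDHL (-0.43 and -0.72) and MSMO1 (-0.07 and -0.54). Antioxidant enzymes had 3 of 18 below (16.7%), near the 14.8% over all 5460 genes, and 0 above. Among them GSTA2, a glutathione transferase, was at 11.13 and 10.51 against 11.49 and 11.41.

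Of 24 matrix glycoprotein genes 5 lay below (20.8%) and 1 above, and of 22 collagen genes 4 below (18.2%) and 1 above, beside 14.8% below over all 5460 genes. With dim genes included the counts were nearly even, 9 above and 10 below of 80 for the matrix list and 5 above and 6 below of 45 for the collagens. Over all 12386 genes of the array not on Z or W, 14.8% lay above and 13.2% below. By the fold rule in both pairs, 2 of the 80 were higher and 4 lower, and 0 of the 45 higher and 4 lower. Over all 12386 genes 3.19% were higher and 2.09% lower by this rule. LAMB1, a laminin chain of basement membranes, was at 8.48 and 7.92 at 72 hrs and at 9.23 and 9.19 in controls, and RELN, the secreted protein reelin, at 9.76 and 10.01 against 10.50 and 10.73. FN1, fibronectin, was at 8.38 and 7.76 against 8.97 and 9.08, and 2 more of its probe sets were over 7. COL9A1, a cartilage-type collagen that the BP also makes, was at 9.31 and 9.40 against 10.51 and 9.58, and GPC1, a glypican, was higher by 0.52 and 0.38. The medians of the matrix list were -0.28 in pair 1 and 0.09 in pair 2, and with equal array medians the second was -0.013. The median over the mean of both pairs was 0.043. Some connective tissue and cartilage genes were high on control replicate 1: DCN, decorin, which had a mean of 6.98, was at 6.96 and 5.12 at 72 hrs and at 10.09 and 4.84 in controls. LECT1, a cartilage protein, was at 6.90 and 4.98 against 10.73 and 5.68. Others were not: the controls lay close together in COL3A1 of the collagen list, at 7.741 and 7.716. In MATN3 of the matrix list they were at 7.738 and 7.862. The 11 cartilage and bone markers summed to 1162 and 1163 at 72 hrs and to 2097 and 1330 in controls. COL9A1, at 10.51 in control replicate 1, is itself among these markers, so the sum is not separate from the collagen values. The median log2 intensity of the markers was 4.23 and 4.22 at 72 hrs and 4.58 and 3.67 in controls. Of the 11, 7 were under 32 on each array compared. In pair 2, which does not hold control replicate 1, the differences of LAMB1, RELN, FN1 and COL4A1 were -1.28, -0.72, -1.32 and -1.002, while those of COL9A1 and COL4A2 were -0.18 and -0.11. The part of these cells in the matrix values was not tested.

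**Figure D4:**
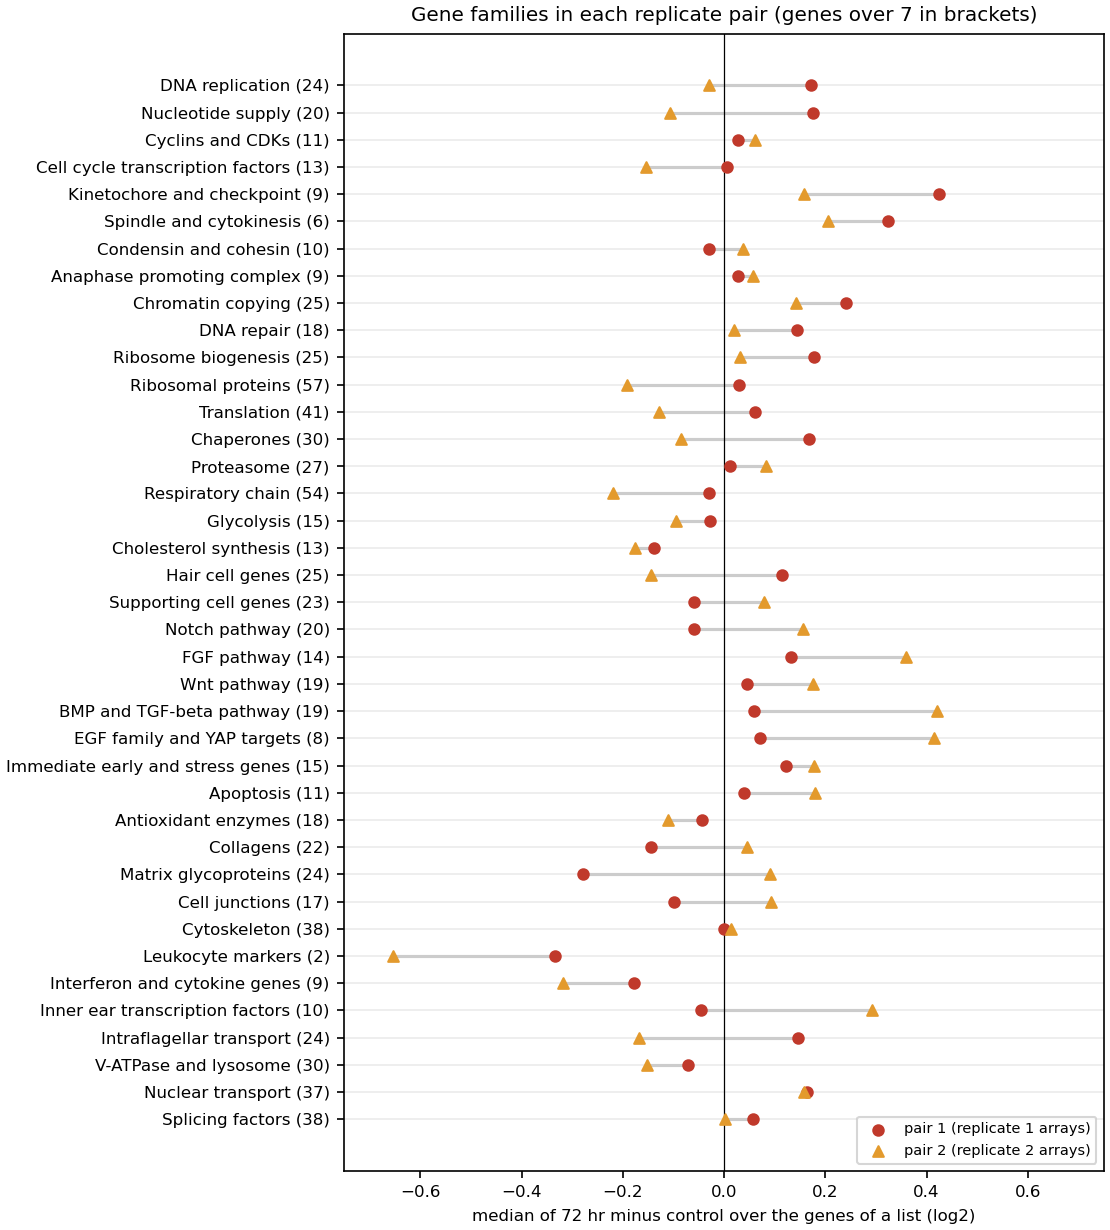
Median log2 difference between 72 hrs and control over the genes of each list, in pair 1 (red circles) and pair 2 (orange triangles), with the number of genes over 7 in brackets. Nuclear transport has 0.16 in both pairs and chromatin copying 0.24 and 0.14 (0.055 and 0.039 in pair 2 with equal array medians), while the matrix list has -0.28 and 0.09, on both sides of 0.

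Lists for other cells held few genes over 7. Of 35 leukocyte genes on the array 2 were over 7 and 0 of them lay beyond the controls, and 11 leukocyte markers summed to 1385 and 1077 at 72 hrs and to 1591 and 1294 in controls. Their sum and median ran opposite ways: 5 of the 11 lay above both controls and 0 below, and the median log2 intensity was 5.46 and 5.65 at 72 hrs and 5.18 and 5.34 in controls. Over all 35 leukocyte genes, dim ones included, 9 lay above (25.7%) and 6 below, beside 14.8% above and 13.2% below over all 12386 genes. By the fold rule 2 of the 35 were higher and 4 lower in both pairs. Of 9 interferon and cytokine genes 1 lay above, TRIM25 (0.71 and 0.22), and 2 below, and over all 44 genes of that list 9 lay above and 6 below. IL6, an inflammatory cytokine, was at 7.15 and 7.11 against 7.642 and 7.995, and STAT3, its transcription factor, at 7.14 and 7.13 against 7.46 and 7.45. Intraflagellar transport had 6 of 24 genes above, with DYNC2H1, the motor that carries cargo back from the tip of a cilium, higher by 0.40 and 0.86, and 2 below, while its median was 0.15 in pair 1 and -0.17 in pair 2. Chaperones had 6 of 30 above and 2 below, or 3 and 2 with equal array medians. The proteasome had 2 of 27 above and 1 below, translation 3 of 41 above and 4 below, and glycolysis 1 of 15 on either side. The cytoskeleton had 4 of 38 above and 3 below (2 and 4 with equal array medians), and cell junctions 0 of 17 above and 2 below. Apoptosis had 3 of 11 above and 1 below, and ear transcription factors 1 of 10 above, ESRRG (0.24 and 0.55), and 0 below.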

How the data were processed

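The intensity values were deposited by the authors as 1 linear value per probe set and array. The submitters' notes name MAS5 and the paper's methods dChip, and the genome build is not given in the sources used here. Values were transformed to log2 with no other normalization, and 0 columns lacked a sample. Of 38535 probe sets 153 controls were left out and 38382 tested. Median intensities were 28.2 and 30.1 at 72 hrs, against 26.5 and 28.0 in controls, and 51.7% to 54.4% of all values lay under 32 on the 6 arrays, so their number and low signals limit the precision. Symbols came from the platform's annotation, updated by Entrez identifier to RefSeq (GRCg7b), which also placed genes on Z and W. Of the 8960 probe sets 7141 have 1 symbol, 45 several and 1774 none, and 1882 were placed on no chromosome.

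limma 3.58.1 (R 4.3.3; lmFit, eBayes with trend) was fitted by group to all 6 arrays, with 3 residual and 4.75 prior degrees of freedom and two-sided p values, adjusted after Benjamini and Hochberg across all 38382 probe sets with a threshold of 0.05. The fit was tested on simulated data, in 10 runs on 38382 probe sets with 200 changed in each. It found 66.9% of the probe sets with a log2 change of 2 and 3.1% of those with a change of 1. There were 48 false calls among 748. These rates describe the simulated data only. Whether they hold for the real arrays, where deviations of same-numbered arrays at 72 hrs and in controls correlated with 0.29, was not tested. Named are the 15 genes per direction with the largest difference in the weaker pair and no overlap between groups, up to 5 such genes per list and direction, every limma call and the genes with primers in the study. The 39 lists, the genes and the alternatives were chosen with earlier results of these data known, and KCNMA1, PENK, SMPX, LECT1, NASP and SUZ12 were named after their values were seen. Counts and figures were made in Python 3.11.15 (numpy 2.4.6, matplotlib 3.10.9, pandas 2.3.3). A search of promoters for motifs was not run, because no promoter sequences were used here.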

Additional observations from a re-analysis of the deposited data

Results flagged for a closer look

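Outside the chicken probe sets, 689 others were tested, and 1 of them with a mean log2 intensity over 7 had both 72 hr values above both controls. It was at 10.52 and 9.65 at 72 hrs and at 9.42 and 8.96 in controls, a log2 fold change of 0.89 (adjusted p = 0.996, limma). Groups of 2 arrays are too small for a search for single outlying arrays.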

How the results depend on the processing

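The count of 2 limma calls higher at 72 hrs became 0 with the control and 72 hr arrays fitted alone, with only probe sets over 7 fitted, without a trend in the prior variance, with intensities floored at 32, and without any 1 of the 6 arrays (0 to 0). It was 1 without the probe sets that passed the limit only through the 72 hr arrays, an alternative chosen after seeing the data. It was 10 at a limit of 6, where 2 were called lower, and 1 at a limit of 8. Quantile normalization and equal array medians left the same 2 genes called. Only 2 replicate numbers exist and the labels do not say that they mark a shared batch. Deviations of same-numbered arrays at 72 hrs and in controls correlated with 0.29 over 8960 probe sets. The values were 0.45 for 48 hrs with control and 0.57 for 72 hrs with 48 hrs. With the replicate number as a block 5 probe sets were called higher and 1 lower. The 33 genes higher in both pairs became 62, 20 and 11, and the 37 lower 56, 25 and 9, at limits of 6 and 8 and with a fold limit of 1. Crossed pairs gave 23 lower. Of the 12 genes with primers, 7 turned their direction on leaving out 1 array: the log2 fold change ranged from -0.70 to 0.50 for MAPK8, -0.20 to 0.53 for MYC, -0.15 to 1.31 for EGR1, -2.95 to 0.27 for KLF2, -4.05 to 1.20 for DCN, -0.087 to 0.42 for FGFR2 and -0.40 to 0.18 for GAPDH. FN1, E2F1, HES6, HBEGF and HSPB9 kept theirs. The medians of the 39 lists changed sign in 10 lists with equal array medians and in 12 without 72 hr replicate 2, and the cause of these changes was not tested. Promoter motifs were not run.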
